A study of Mus musculus with 6 samples.

Results

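Glycolysis and hypoxia-response genes are described here as a set of 32 genes, of 52636 gene IDs in the expression table. They were taken by symbol: 20 genes of glucose uptake, glycolysis and the fate of pyruvate, 11 targets of the hypoxia-inducible factor (HIF) outside glycolysis, and Hif1a, which encodes the HIF-1α subunit. The table held 33 rows with these symbols, because Aldoa had a second ID, and the row with the highest mean was kept. The second Aldoa ID had 1.20 to 1.75 CPM (reads of a gene scaled to a common library total) in ibuprofen libraries and 1.20 to 2.55 CPM in untreated libraries. All 32 genes passed the filter on low values, which asked for 1 CPM or more in 3 or more of the 6 libraries.

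The libraries were 3 of ibuprofen mice and 3 of untreated mice, made from living cells of the thoracic oesophagus sorted for high EpCAM, an epithelial surface protein. The ibuprofen mice received this cyclooxygenase inhibitor at 0.6 g/l in the drinking bottle, and the untreated mice did not. Both groups carried Krt5-CreERT2:R26SmoM2/EYFP (K5:Smo), in which tamoxifen activates a Cre recombinase in keratin 5-expressing cells and so turns on SmoM2, an oncogenic version of the Hedgehog transducer Smoothened that needs no ligand. Both were taken 12 weeks after tamoxifen, so there was no group without active Smoothened, and the only comparison is ibuprofen against untreated. Whether each library is a different mouse is not given in the labels, and p-values therefore refer to spread among libraries, which may be technical.

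Glycolysis splits glucose into pyruvate, which is then reduced to lactate and exported or oxidised in mitochondria. When oxygen is available, prolyl hydroxylases mark HIF-1α protein for degradation through the VHL ubiquitin ligase. When oxygen is low, the protein accumulates, pairs with ARNT and binds DNA at short hypoxia response elements. Its known targets include most glycolytic enzymes as well as genes of mitophagy, pH control and blood vessel growth. HIF-1α is controlled mainly as a protein, which RNA does not measure.

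Library depth, estimated as reads on genes, was 7702544 to 8764364 in ibuprofen libraries and 6361265 to 8739133 in untreated libraries. All 10 epithelial marker genes were tested, and their summed level was 9966 to 11248 CPM in ibuprofen libraries and 12163 to 13445 CPM in untreated libraries, with no overlap. The lower sum lay in keratin genes and was not shared by the list. Krt5, the most abundant, averaged 2881 ± 225 CPM with ibuprofen and 3615 ± 439 CPM untreated (SD, n = 3 each). Krt14 and Krt15 had log2 differences of -0.54 ± 0.16 and -0.64 ± 0.13. These 3 of the 10 markers (30.0%, against 6.17% of all tested genes) were lower at an unadjusted limma p under 0.05. Epcam, Cdh1, Itga6, Sox2 and Trp63 had differences between -0.05 and 0.12, all with overlapping groups. Summed proliferation genes were lowest in ibuprofen replicate 3, at 1293 CPM, against 2450 to 2883 CPM in the other two ibuprofen libraries and 1918 to 2465 CPM in untreated libraries. Mki67, the most abundant of these 12 genes, had 602 CPM in that library and 700 to 1336 CPM in the other 5, and was the only one with a positive difference, 0.03 ± 0.26. The other 11 were negative, the median was -0.25, and 4 of 12 (33.3%, against 6.17% of all tested genes) were lower at an unadjusted p under 0.05: Mcm2, Mcm5, Ccne1 and Cdc20, from -0.83 to -0.48. Summed fibroblast markers were highest in ibuprofen replicate 1, at 540.3 CPM, against 333 to 372 CPM in the other 5 libraries. Fbln1, the most abundant, had 309 ± 73.6 CPM with ibuprofen and 289 ± 15.9 CPM untreated. Of the 7 fibroblast markers tested, 6 had positive and 1 a negative difference. Their median log2 difference was 0.36, and 0 had an unadjusted p under 0.05. Col1a1 had 29.0 CPM in ibuprofen replicate 1 and 3.65 to 4.70 CPM in the other 5 libraries. In bulk RNA, fewer cells of a type and less RNA per cell cannot be told apart.

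None of the 32 genes passed the test between ibuprofen and untreated cells, at a limma adjusted p under 0.05 over all 16684 tested genes. Among all tested genes 87 passed it, or 0.521%, with 50 higher (0.3%) and 37 lower (0.222%) with ibuprofen. Dropping single libraries moved that total: it was 23 without ibuprofen replicate 1 and 44 without ibuprofen replicate 3. Leaving out untreated replicate 1 gave 4, dropping untreated replicate 2 gave 5, and dropping untreated replicate 3 gave 456. The smallest adjusted p belonged to Bnip3, a mitophagy receptor, with 0.0624, followed by the pyruvate dehydrogenase kinase Pdk1, the peptide hormone gene Adm and the lactate exporter Slc16a3. At the unadjusted level, 6 genes had an unadjusted p under 0.05, all with higher values with ibuprofen: these 4, Hif1a and Ldhb. The share is 18.8%, against 11.8% of all tested genes on the higher side and 6.17% on the lower side, where none of the 32 stood. In 7 genes, these 6 and Bnip3l, the ibuprofen values lay wholly above the untreated values, 21.9% against 14.2% of all tested genes, and in Hk1 and Pfkp, 2 genes, wholly below, 6.25% against 8.73%. The other 23 genes had overlapping groups.

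**Figure D1:**
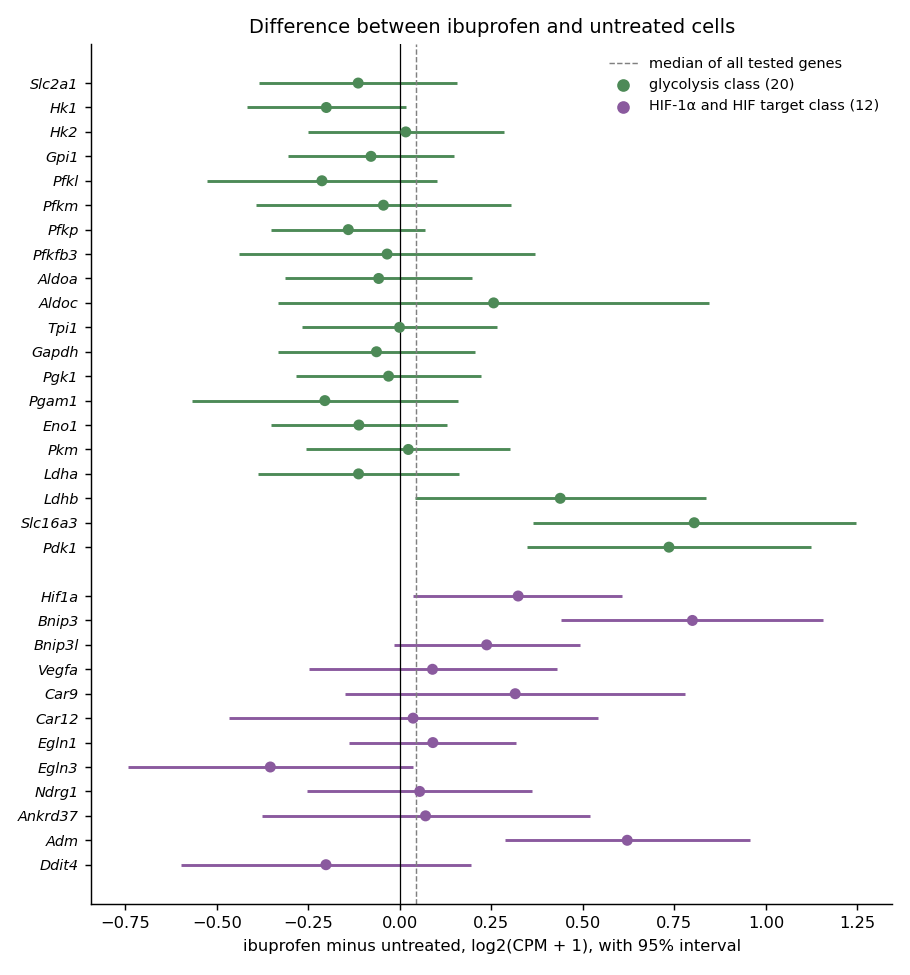
Difference between ibuprofen and untreated cells for the 32 genes, on the log2(CPM + 1) scale on the x axis, with 95% limma intervals; green points are the glycolysis class and purple points Hif1a and its targets, and the dashed line is the median of all tested genes, 0.04. The 6 genes at an unadjusted p under 0.05 are those whose intervals lie wholly right of 0, and the glycolytic enzymes from Hk1 to Pkm lie between -0.21 and 0.26.

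The medians of the glycolysis class and of the HIF target class lay on either side of the median of all tested genes, by small amounts. The 20 glycolysis genes had a median log2 difference of -0.05, with 6 positive and 14 negative values. The 11 HIF targets had a median of 0.09, with 9 positive and 2 negative values. The median of all tested genes was 0.04, and 56.3% of them were positive. The glycolysis median minus the HIF target median was -0.14, a description with no test, since the genes were chosen with results of these data known. The range within each class was wider than this gap: -0.21 to 0.80 in the glycolysis class and -0.35 to 0.80 among HIF targets.

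The glycolysis class is described below in 2 divisions, made with the values known and not tested against each other. The 14 enzymes that take glucose to pyruvate had a median log2 difference of -0.06, ranging from -0.21 to 0.26, and none had an unadjusted p under 0.05. Their 95% intervals all lay within a 2-fold change on this scale, and 11 of the 14 lay within 0.5 on the log2 scale. The other 6 genes of the class, Slc2a1, Pfkfb3, Ldha, Ldhb, Slc16a3 and Pdk1, had a median of 0.20, with 3 positive and 3 negative values from -0.11 to 0.80, which overlap the range of the 14 enzymes. They included 3 of the 6 genes at an unadjusted p under 0.05. Summed over the 14 enzymes, the level was 3101, 3130 and 3107 CPM in ibuprofen libraries 1 to 3, against 3419, 3387 and 2907 CPM in untreated libraries 1 to 3. Untreated replicate 3 was the lowest of all 6 libraries and the groups overlapped.

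The 4 genes with the smallest p stand at different points of the hypoxia response, and the RefSeq promoter window of each (GRCm38.p6, 250 bases before to 50 after the annotated start, read along the gene) is shown with that of Ldha, a classical HIF target whose groups overlapped. These 5 were picked after their values were seen. Capitals mark the core of the hypoxia response element, ACGTG or GCGTG, and its reverse complements CACGT and CACGC on the other strand; where CACGTG occurs, it was counted once on each strand.
Bnip3, chr7:138909457-138909756, minus strand: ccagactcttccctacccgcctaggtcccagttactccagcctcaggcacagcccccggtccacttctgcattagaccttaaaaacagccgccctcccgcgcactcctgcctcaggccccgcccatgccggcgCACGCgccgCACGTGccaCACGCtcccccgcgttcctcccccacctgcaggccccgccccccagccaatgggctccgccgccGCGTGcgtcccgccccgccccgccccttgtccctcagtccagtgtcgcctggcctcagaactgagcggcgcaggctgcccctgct
Pdk1, chr2:71872974-71873273, plus strand: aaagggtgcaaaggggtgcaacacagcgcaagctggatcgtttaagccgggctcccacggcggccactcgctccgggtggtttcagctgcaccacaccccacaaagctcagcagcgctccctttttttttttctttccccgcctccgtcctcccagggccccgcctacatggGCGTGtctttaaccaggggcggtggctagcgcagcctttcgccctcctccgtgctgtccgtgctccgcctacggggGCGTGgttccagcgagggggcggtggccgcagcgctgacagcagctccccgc
Adm, chr7:110627407-110627706, plus strand: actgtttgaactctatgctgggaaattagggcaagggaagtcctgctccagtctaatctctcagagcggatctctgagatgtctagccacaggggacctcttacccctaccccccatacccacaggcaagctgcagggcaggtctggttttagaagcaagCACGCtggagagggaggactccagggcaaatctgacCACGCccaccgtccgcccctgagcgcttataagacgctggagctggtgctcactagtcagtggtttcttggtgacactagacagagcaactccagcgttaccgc
Slc16a3, chr11:120948817-120949116, plus strand: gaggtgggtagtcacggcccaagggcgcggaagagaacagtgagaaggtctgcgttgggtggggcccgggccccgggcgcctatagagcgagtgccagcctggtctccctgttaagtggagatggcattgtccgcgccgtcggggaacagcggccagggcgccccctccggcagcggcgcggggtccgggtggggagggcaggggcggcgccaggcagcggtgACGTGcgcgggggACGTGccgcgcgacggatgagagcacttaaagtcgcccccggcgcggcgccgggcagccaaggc
Ldha, chr7:46845554-46845853, plus strand: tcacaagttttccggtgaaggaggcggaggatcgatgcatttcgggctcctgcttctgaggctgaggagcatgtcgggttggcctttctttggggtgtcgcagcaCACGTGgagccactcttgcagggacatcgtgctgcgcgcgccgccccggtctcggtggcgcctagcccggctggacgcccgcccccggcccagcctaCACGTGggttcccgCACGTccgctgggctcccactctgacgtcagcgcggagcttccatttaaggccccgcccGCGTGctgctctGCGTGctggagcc

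Bnip3 had 5 matches, Pdk1 had 2, Adm had 2, Slc16a3 had 2 and Ldha had 7. A window was found for 30 of the 32 genes, and 23 of those, or 76.7%, held at least 1 match, against 43.8% of all 32851 RefSeq windows of 300 bases. The share was 75.0% in the glycolysis class (15 of 20) and 77.8% among HIF targets (7 of 9). The windows of these genes had a median GC content of 63.5%, against 52.7% in all windows, and the motif is rich in G and C, and the part of this in the shares was not tested. A match is only a run of letters and says nothing of binding in these cells. Ldha, with 7 matches, had a log2 difference of -0.11, and Bnip3, with 5, had 0.80. Any relation between matches and differences was not tested.

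GLUT1, encoded by Slc2a1, is a HIF-responsive glucose transporter. Slc2a1 had 329.9, 388 and 394 CPM in ibuprofen libraries 1 to 3, against 468, 377 and 363 CPM in untreated libraries 1 to 3. The groups overlapped, with the highest and the lowest value each in a library numbered 1, and the log2 difference was -0.11 ± 0.12 (SE). Hexokinases trap glucose as glucose 6-phosphate. Hk2, the HIF-responsive isozyme, had 446, 378 and 511 CPM with ibuprofen and 447, 408 and 456 CPM untreated, with a log2 difference of 0.02. Hk1, the more constant isozyme, had 130.3, 136 and 144 CPM with ibuprofen and 163, 163 and 146 CPM untreated. All ibuprofen values of Hk1 were below all untreated values, with a log2 difference of -0.20 ± 0.10 and an adjusted p of 0.312. Per kilobase of exon, Hk2 made up 82.16% ± 2.00 of the hexokinase pair with ibuprofen and 79.85% ± 1.79 untreated (SD, n = 3 each), and the groups overlapped.

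Phosphofructokinase sets the committed step and is allosterically regulated. Pfkp, the platelet-type subunit, had 246, 265 and 272 CPM with ibuprofen and 301, 278 and 284 CPM untreated, again without overlap, at a log2 difference of -0.14 ± 0.10 and an adjusted p of 0.449. Pfkl, the liver-type subunit, had 52.2, 60.4 and 63.6 CPM with ibuprofen and 81.9, 67.7 and 56.6 CPM untreated, and the groups overlapped. Per kilobase, Pfkp held 61.2% ± 0.7 of the 3 subunits with ibuprofen and 60.7% ± 3.1 untreated, so the mixture of subunits overlapped. Pfkfb3, which makes the activator fructose 2,6-bisphosphate and is a HIF target, had 22.7, 23.4 and 37.4 CPM with ibuprofen and 24.98, 28.6 and 30.0 CPM untreated. Its highest value was in ibuprofen replicate 3, and the other two ibuprofen libraries held its lowest values.

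Per kilobase of annotated exon, Pkm had 138 ± 10.8 CPM per kb with ibuprofen and 136 ± 20.2 untreated, Ldha 119.9 ± 8.0 with ibuprofen and 131 ± 20.4 untreated, and Gapdh 96.0 ± 5.5 with ibuprofen and 101 ± 15.1 untreated (SD, n = 3 each). Their order depends on the length used: per kilobase of the longest coding transcript, Gapdh had 279 CPM per kb with ibuprofen and 294 untreated, Pkm 283 with ibuprofen and 280.4 untreated, and Ldha 219 with ibuprofen and 238 untreated. Pkm, pyruvate kinase, makes the pyruvate and had 719, 722 and 627 CPM with ibuprofen and 704, 770.1 and 572 CPM untreated. Its log2 difference was 0.02 ± 0.13. The 2 libraries numbered 3 held its lowest values, 1 in each group. Gm49759, a gene on the same strand, overlaps 15.3% of the exon bases of Pkm. It averaged 200 CPM with ibuprofen and 196 CPM untreated, so reads in that stretch may be split between it and Pkm. Gapdh, glyceraldehyde 3-phosphate dehydrogenase and a common reference gene, had 410.2, 409 and 371 CPM with ibuprofen and 468, 438 and 347 CPM untreated, at a log2 difference of -0.06 ± 0.12. Gapdh has 76 near-identical copies in the annotation, at 95% identity or more over at least 300 bases, and their summed level equalled 16.5% of its own, so its count may be split among them. Eno1, enolase, had 261, 263 and 240.4 CPM with ibuprofen and 276, 309 and 244 CPM untreated. Its 3 copies summed to 16.9% of its level, and the most abundant, Eno1b, averaged 22.75 CPM over all libraries. Of the remaining enzymes, Aldoa, Tpi1, Pgk1, Gpi1 and Pgam1 had log2 differences between -0.20 and -0.00, and Aldoc, the low-abundance aldolase at 3.2 to 4.95 CPM with ibuprofen and 1.90 to 4.35 CPM untreated, had 0.26 ± 0.27. Per kilobase, Aldoa made up 98.77% ± 0.23 of the aldolase pair with ibuprofen and 99.05% ± 0.28 untreated.

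**Figure D2:**
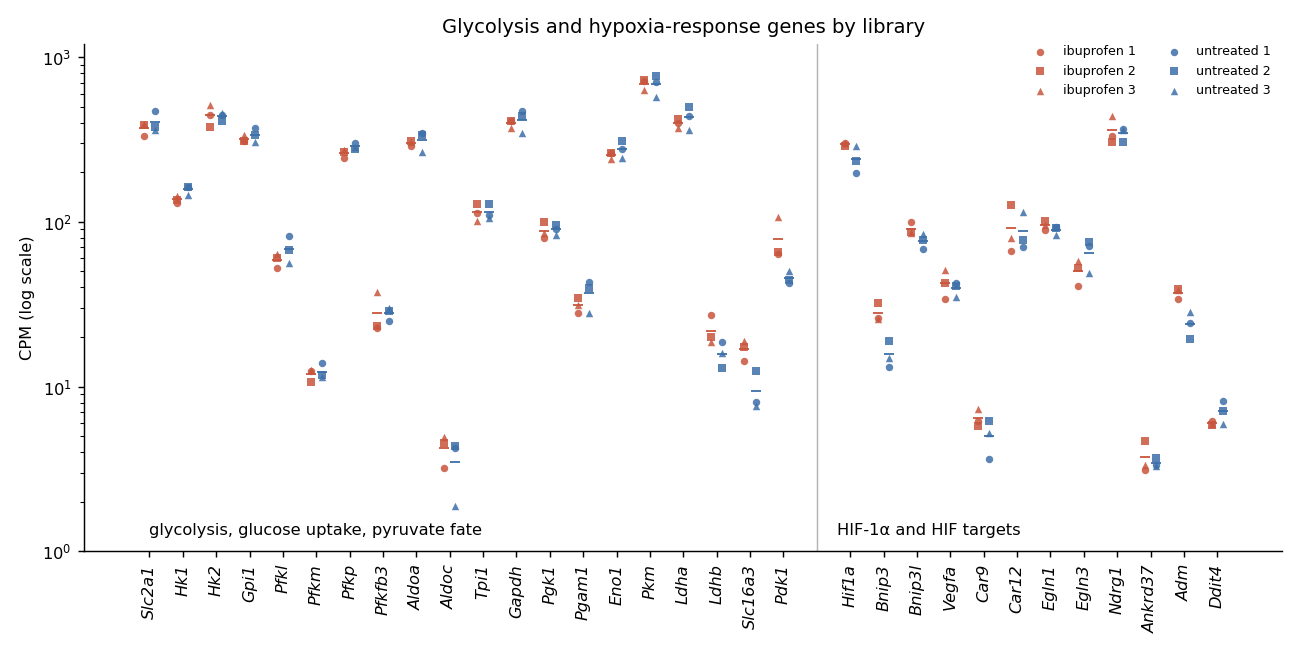
CPM of each of the 32 genes by library on a log10 axis, with ibuprofen libraries (red) left of untreated libraries (blue), symbols for replicate numbers and horizontal bars for the group means. Of the 14 enzymes from glucose to pyruvate, 12 overlap between the groups. The other 2, Hk1 and Pfkp, lie wholly lower with ibuprofen (14.3%, against 8.73% of all tested genes). Wholly higher are 0.0% of these enzymes, against 14.2% of all tested genes. Bnip3, Pdk1, Adm and Slc16a3 are the genes whose points separate most.

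At the end of the pathway, 4 genes bear on whether pyruvate becomes lactate or is oxidised in mitochondria, and they did not share a pattern. Slc16a3, Pdk1 and Ldhb had non-overlapping groups with higher values with ibuprofen, while the groups of Ldha overlapped. Ldha, which reduces pyruvate to lactate, had 397, 423 and 370.1 CPM with ibuprofen and 442, 494 and 360.2 CPM untreated, with a log2 difference of -0.11 and a 95% interval of -0.39 to 0.16. The lactate exporter Slc16a3 (MCT4) had 14.2, 17.4 and 18.9 CPM with ibuprofen and 8.04, 12.5 and 7.59 CPM untreated. Every ibuprofen library was above every untreated library, the mean was 1.80 times as high, and the log2 difference was 0.80 ± 0.20 with an adjusted p of 0.102. Pdk1, which phosphorylates and so inactivates pyruvate dehydrogenase, had 64.0, 66.0 and 106 CPM with ibuprofen and 42.8, 44.4 and 50.1 CPM untreated. The groups did not overlap and the log2 difference was 0.73 ± 0.18, with an adjusted p of 0.0958; without ibuprofen replicate 3, which was highest, it was 0.50. Ldhb, the lactate dehydrogenase subunit that favours lactate oxidation, had 27.1, 19.9 and 18.7 CPM with ibuprofen and 18.5, 12.9 and 16.1 CPM untreated. The ibuprofen values of Ldhb only just cleared the untreated ones, 18.7 against 18.5 CPM, and the adjusted p was 0.240. Per kilobase, Ldha made up 89.6% ± 1.9 of the Ldha and Ldhb pair with ibuprofen, against 92.7% ± 1.8 untreated, so Ldha dominated in both groups. This share did not overlap, at 87.4% to 91.0% with ibuprofen and 91.4% to 94.8% untreated.

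**Figure D3:**
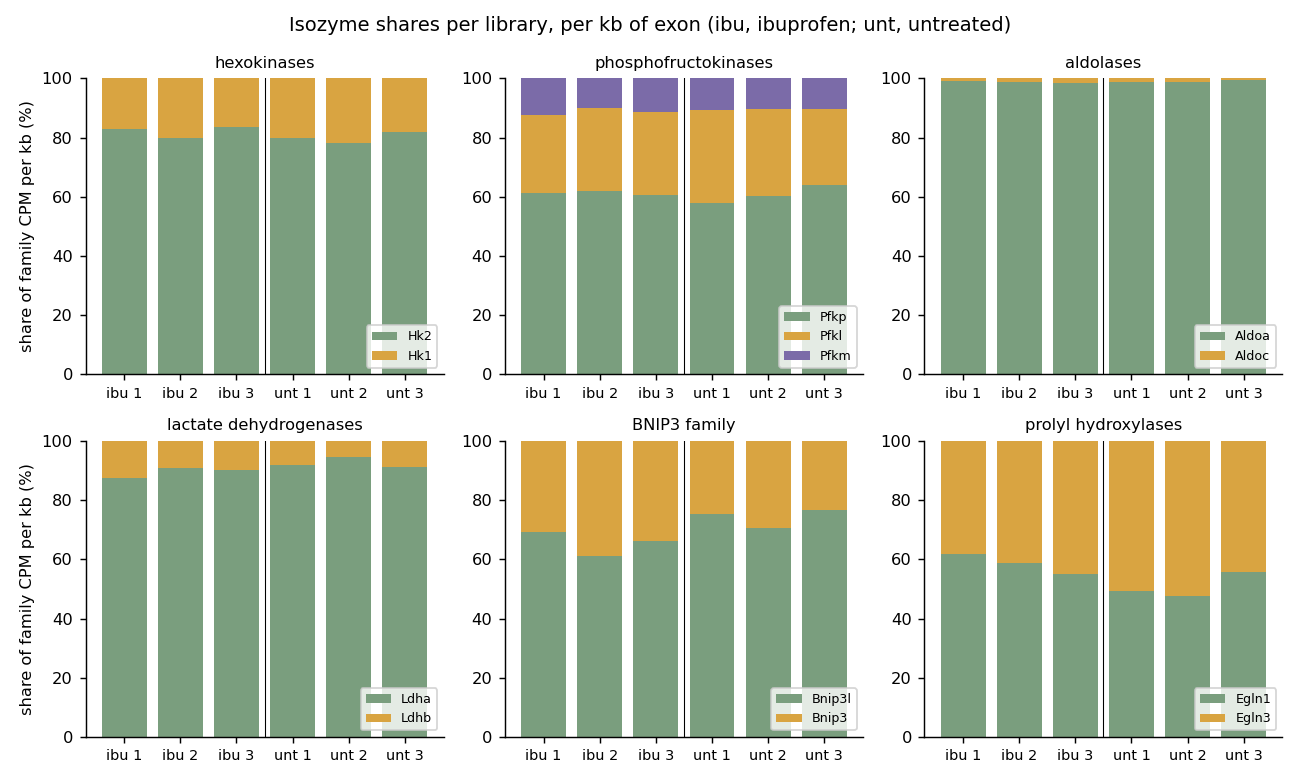
Stacked bars of isozyme shares in each library, as percent of the family's CPM per kilobase of exon (y axis), with ibuprofen libraries left of the line and untreated libraries right of it; colours mark the genes of each family. The Bnip3 share is 30.9% to 38.8% with ibuprofen against 23.2% to 29.3% untreated, without overlap. The Ldha share is 87.4% to 91.0% with ibuprofen against 91.4% to 94.8% untreated, also without overlap.

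Among HIF targets, Bnip3 and Adm had the clearest separation. Bnip3, a mitochondrial outer membrane protein that recruits autophagosomes, had 26.1, 32.1 and 25.7 CPM with ibuprofen and 13.2, 19.0 and 14.9 CPM untreated. The lowest ibuprofen value was above the highest untreated value, the mean was 1.78 times as high, and the log2 difference was 0.80 ± 0.16 with an unadjusted p of 0.000447. An antisense gene, Gm45507, overlaps 22.3% of the exon bases of Bnip3 and had 14.7, 17.4 and 15.2 CPM with ibuprofen and 5.55, 10.2 and 7.5 CPM untreated. The strand of the counting is not given in the sources used here, so reads in that shared stretch cannot be assigned to Bnip3 or to Gm45507, and the other exon bases of Bnip3 lie outside it. The antisense gene separated the groups as Bnip3 did, with a log2 difference of 0.97 ± 0.20. The difference of Bnip3 passed the test in 4 of 18 alternative settings. Bnip3l (NIX), the related receptor, had 99.4, 86.3 and 85.9 CPM with ibuprofen and 68.4, 77.9 and 84.0 CPM untreated, a log2 difference of 0.24 ± 0.12. Its groups were separated by a small gap. Within the pair, per kilobase, Bnip3 took 34.5% ± 4.0 with ibuprofen and 25.8% ± 3.2 untreated.

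Adm encodes adrenomedullin, a secreted peptide that dilates and stabilises vessels, and had 33.8, 39.3 and 38.3 CPM with ibuprofen against 24.4, 19.3 and 28.4 CPM untreated. The groups did not overlap, the mean was 1.55 times as high, and the log2 difference was 0.62 ± 0.15 with an adjusted p of 0.0988. Without untreated replicate 3, the highest untreated value, Adm passed the test with a limma adjusted p of 0.0388. In that setting 456 of 16433 tested genes passed, against 87 of 16684 with all libraries. Adm did not pass when any other single library was left out. Over all alternatives its adjusted p ranged from 0.00413 to 0.398. Vegfa, the growth factor of vessels, had 33.8, 42.5 and 51.1 CPM with ibuprofen and 42.6, 40.5 and 35.2 CPM untreated. Its groups overlapped fully, with the lowest and the highest value both in ibuprofen libraries, and its log2 difference was 0.09 ± 0.15.

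**Figure D4:**
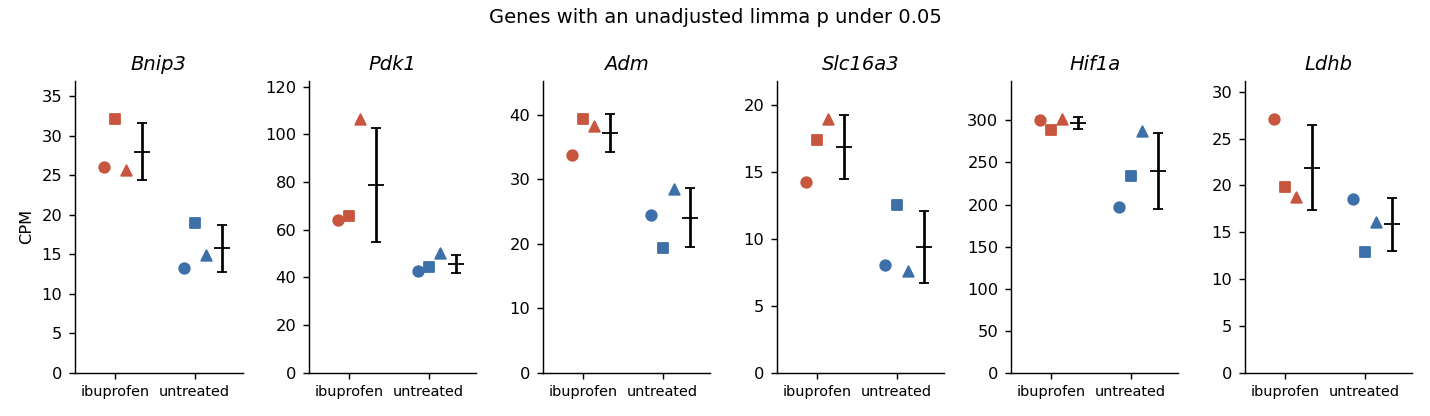
CPM by library of the 6 genes with an unadjusted p under 0.05, ibuprofen left and untreated right, with CPM from 0 on the y axis. Symbols mark the replicate number, for which the labels give no pairing of libraries, and black bars are the mean ± SD. In each panel all 3 ibuprofen values lie above all 3 untreated values, narrowly for Hif1a, 288.5 against 287.6 CPM, and for Ldhb, 18.7 against 18.5 CPM.

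Hif1a itself had 299.9, 288.5 and 302 CPM with ibuprofen and 197, 234 and 287.6 CPM untreated. The ibuprofen libraries were close together while the untreated ones were spread, and untreated replicate 3 almost reached the ibuprofen range. The log2 difference was 0.32 ± 0.13 with an adjusted p of 0.232, and 0.19 without untreated replicate 1. The antisense gene Gm15283, which overlaps 5.6% of the exon bases of Hif1a, had 50.6, 53.6 and 49.3 CPM with ibuprofen and 30.0, 36.7 and 49.4 CPM untreated, in the same order of untreated libraries. The prolyl hydroxylases that act as oxygen sensors did not share a direction. Egln3, itself HIF-inducible, had 40.6, 52.5 and 57.8 CPM with ibuprofen and 71.3, 75.0 and 48.7 CPM untreated, at a log2 difference of -0.35 ± 0.18, and Egln1 had a difference of 0.09 ± 0.10. Both sets of values overlapped between groups. The difference of Egln3 was -0.21 without ibuprofen replicate 1 and -0.55 without untreated replicate 3, both at an adjusted p above the threshold.

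The other HIF targets did not separate. Car9, a cell-surface carbonic anhydrase and common hypoxia marker, had 6.15, 5.75 and 7.34 CPM with ibuprofen and 3.65, 6.20 and 5.25 CPM untreated, on 23 to 64 estimated reads per library. Its log2 difference was 0.32 ± 0.21, with a 95% interval of -0.15 to 0.78, and it was 0.14 without untreated replicate 1, the lowest value. Ankrd37, often used as a HIF reporter, had 3.1, 4.70 and 3.35 CPM with ibuprofen and 3.35, 3.70 and 3.30 CPM untreated, on 21 to 36 estimated reads, with a 95% interval of -0.38 to 0.52. Ddit4, an inhibitor of mTORC1 signalling, had 6.15, 5.85 and 5.95 CPM with ibuprofen and 8.19, 7.09 and 5.95 CPM untreated. Car12 and Ndrg1 had log2 differences of 0.04 ± 0.23 and 0.05 ± 0.14.

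Of the 7 genes with non-overlapping, higher ibuprofen values, 4 had low GC content. The others, Adm, Ldhb and Slc16a3, had 50.7%, 53.0% and 56.6%. GC content of the longest transcript was 41.6% for Bnip3, 41.3% for Hif1a, 41.9% for Bnip3l and 46.4% for Pdk1, the lowest of its class, against a median of 52.9% in the glycolysis class, 50.9% among HIF targets and 49.3% in all tested genes. Across genes, the rank correlation of GC content with a library's deviation from the mean was -0.25, -0.32 and -0.09 in ibuprofen libraries 1 to 3 and 0.47, 0.19 and -0.28 in untreated libraries 1 to 3. With each library's GC trend removed, the log2 difference was 0.16 for Hif1a, 0.08 for Bnip3l and 0.64 for Bnip3 (0.80 uncorrected). It was 0.63 for Pdk1 (0.73 uncorrected), 0.87 for Slc16a3 (0.80), 0.60 for Adm (0.62) and 0.45 for Ldhb (0.44). Of the 2 wholly lower genes, Hk1 (GC content 56.4%) had -0.14 (-0.20 uncorrected) and Pfkp (48.0%) -0.21 (-0.14 uncorrected). The part of GC content in these differences was not tested.

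**Figure D5:**
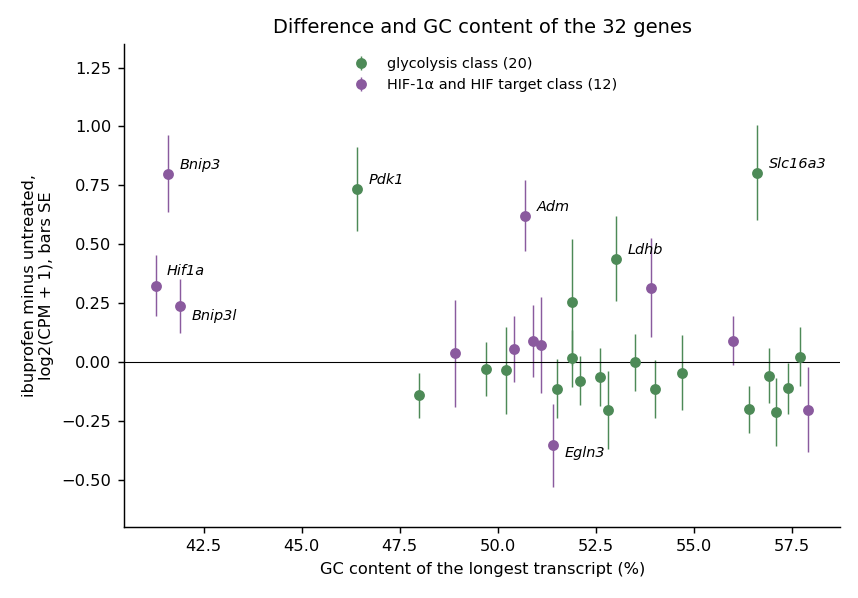
Log2 difference of each of the 32 genes (y axis, with SE bars) against the GC content of its longest transcript (x axis, percent), green for the glycolysis class and purple for Hif1a and its targets. Hif1a, Bnip3 and Bnip3l lie at the low end of GC, between 41.3% and 41.9%, and Slc16a3 at 56.6%.

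Genes of the same pathways that are not among the 32 gave no called gene. Of 30 other glycolysis genes 22 were tested, with a median of 0.10, 1 higher (4.55%, against 11.8% of all tested genes) and 2 lower (9.09%, against 6.17%) at an unadjusted p under 0.05. Tigar, which lowers fructose 2,6-bisphosphate, had 2.95, 3.65 and 3.2 CPM with ibuprofen and 5.70, 6.55 and 5.75 CPM untreated, a log2 difference of -0.72 ± 0.19 with an adjusted p of 0.108, and Gapdhs, the testis-type GAPDH, had 0.55 ± 0.21. Of 13 genes of pyruvate entry into mitochondria, all 13 tested, the median was -0.10; Dld and Pdha1, subunits of the pyruvate dehydrogenase complex, had -0.28 ± 0.11 and -0.20 ± 0.09. Of 16 HIF system genes 14 were tested, with a median of 0.10 and none at an unadjusted p under 0.05; Cited2, a competitor for the HIF coactivator, had 0.26 ± 0.12 and Elob, a subunit of the VHL ligase, -0.26 ± 0.13. Of 40 other hypoxia-response genes 35 were tested, with a median of 0.02, 6 higher (17.1%, against 11.8% of all tested genes) and 3 lower (8.57%, against 6.17%) at an unadjusted p under 0.05. Nampt, an enzyme of NAD synthesis, had 87.7, 92.9 and 95.8 CPM with ibuprofen and 64.9, 64.1 and 81.1 CPM untreated, and Bhlhe40, a transcriptional repressor, had 204, 197 and 193 CPM with ibuprofen and 241, 235 and 282 CPM untreated. Both had an adjusted p of 0.137, in opposite directions.

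Among markers of other cell types, 7 of 9 fibroblast, 2 of 7 endothelial, 6 of 11 muscle, 3 of 10 immune and 1 of 5 erythroid markers passed the filter. Summed endothelial markers were 17.0 to 20.3 CPM with ibuprofen and 15.1 to 16.5 CPM untreated, with Pecam1 at 14.4 ± 2.0 CPM with ibuprofen and 11.5 ± 1.0 CPM untreated. Vwf, the other endothelial marker tested, also had a higher mean with ibuprofen, 3.53 ± 0.78 CPM against 2.48 ± 0.64 CPM untreated, and its groups overlapped. Cdh5 and Tek were under the filter and ran the other way in value. Cdh5 was at 0.22 CPM with ibuprofen and 0.93 CPM untreated, and Tek at 0.10 CPM with ibuprofen and 0.52 CPM untreated. Summed immune markers were 18.7 to 34.3 CPM with ibuprofen and 15.3 to 18.6 CPM untreated, without overlap, and their members differed in sign. Of the 3 tested, 1, Cd68, was higher at an unadjusted limma p under 0.05 (33.3%, against 11.8% of all tested genes). Cd68 averaged 8.59 ± 0.74 CPM with ibuprofen and 5.20 ± 1.39 CPM untreated, while Cd52 averaged 5.33 ± 1.36 CPM with ibuprofen and 6.23 ± 0.55 CPM untreated. Kit had 16.5 CPM in ibuprofen replicate 3, which set the top of the immune sum, and 3.40 to 4.45 CPM in the other 5 libraries, and Adgre1 was at 0 in all libraries. Summed muscle markers, with Myh4 at 0 in all libraries, were 12.7 to 16.0 CPM with ibuprofen and 13.4 to 21.9 CPM untreated, and Tagln, the most abundant, averaged 6.95 CPM with ibuprofen and 6.53 CPM untreated. Of the 6 muscle markers tested, 2 were lower at an unadjusted p under 0.05 (33.3%, against 6.17% of all tested genes). Acta1 had 0.43 CPM with ibuprofen and 2.58 CPM untreated, and Ckm 0.83 CPM with ibuprofen and 1.85 CPM untreated. Both were without overlap, and both ibuprofen means were under 1 CPM. Summed erythroid markers were 1.5 to 2.70 CPM with ibuprofen and 0.70 to 1.90 CPM untreated, mostly Alas2. Of the fibroblast, endothelial, muscle, immune and erythroid lists, none held a called gene. The part of these other cells in the differences of Adm, Bnip3, Pdk1 and Slc16a3 was not tested.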

How the data were processed

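RNA of EpCAM-high sorted cells was sequenced in 3 ibuprofen and 3 untreated libraries. Per the file headers, the authors deposited CPM, gene reads scaled to each library's total. Cell Ranger 3.1.0, HTSeq, edgeR and STAR 2.5.3a, without roles, and the builds GRCm38 and mm10 come from the submitters' processing notes. For the annotation release, filters and strand setting, no statement was found (not given in the sources used here). Reads were estimated from the steps of the values, only to describe depth: 6361265 to 8764364 per library, at least 99.8% of values returned; a listed 0 allows up to 3 reads, or 0.342 to 0.472 CPM, covering counting error only.

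The 16684 genes reaching 1 CPM in 3 or more of 6 libraries were tested with limma 3.58.1 (R 4.3.3; trend, no robust shrinkage, no block) on log2(CPM + 1), which understates changes of low genes, with Benjamini-Hochberg adjustment over all of them and a threshold of 0.05. Differences are ibuprofen minus untreated. The procedure was tested on simulated data. Gene structure and transcript GC came from GENCODE M21; promoter windows from RefSeq. All untreated library names share one code and all ibuprofen names another, of unknown meaning, so a batch cannot be told apart from treatment. Titles call untreated cells epithelial and ibuprofen cells only oesophageal.

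The 32 genes, the other lists and the rule for named genes were chosen with earlier results of these data known. The rule gave per-library values for genes at an unadjusted p under 0.05, the 5 most abundant and 14 fixed genes; other genes with per-library values (Hk1, Pfkl, Pfkfb3, Eno1 and overlapping genes), and markers other than the most abundant, were chosen after their values were seen. Of context lists it named the 2 smallest p or the most abundant marker. Alternatives covered the pseudocount, filter, scaling, library weights, robust shrinkage, a replicate block, GC correction and leaving out libraries. Dropping ibuprofen and untreated replicate 1 together, and the coding-transcript length, were added after the data were seen.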

Additional observations from a re-analysis of the deposited data

How the results depend on the processing

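In all alternatives the class medians moved by less than the SD between libraries. This is a weak check and shows nothing about stability. Leaving out 1 of 3 libraries can hardly move a median that far, and robust shrinkage and the block leave the estimates unchanged. With 1 library left out, the glycolysis median (log2) was -0.123 (without untreated replicate 3) to -0.007 (without untreated replicate 1), the HIF target median 0.080 to 0.168 (highest without ibuprofen replicate 1) and their difference -0.209 to -0.129. The glycolysis median was 0.010 without ibuprofen and untreated replicate 1 together. The count of the 32 genes called higher was 5 with library weights, against 1463 of all 16684 tested genes. With robust shrinkage it was 1 (Bnip3, limma adjusted p 0.0477), against 64 of all tested genes. A replicate block gave 3 (Bnip3, Pdk1 and Slc16a3), against 299. The block with GC correction gave 2 (Bnip3 and Slc16a3, with Pdk1 at 0.0543), against 135. With 1 library left out the count was 0 to 1. The 1 was Adm (adjusted p 0.0388) without untreated replicate 3, against 276 of 16433 tested genes. Called lower were 2 with library weights (Hk1 and Egln3), against 999 of all tested genes. Over all alternatives adjusted p ranged from 0.0134 to 0.361 for Bnip3, 0.00997 to 0.361 for Pdk1, 0.00413 to 0.398 for Adm and 0.0402 to 0.419 for Slc16a3. Of all tested genes, 52 were called with no filter, 2462 with weights, 434 with the block, 268 with block and GC correction, 3 without both replicates 1, and 4 (without untreated replicate 1) to 456 (without untreated replicate 3) with 1 library left out. The labels give no pairing of libraries by replicate number. Correlations of same-numbered deviations were 0, 0.08 and 0.153, and not every library correlated best with its own number. With 3 libraries per group, these correlations cannot settle whether libraries were paired. The cause of these differences was not tested.

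By longest coding transcript, isozyme shares with ibuprofen and untreated were 71.5% and 68.3% for Hk2, 76.0% and 75.4% for Pfkp, 99.2% and 99.4% for Aldoa and 92.9% and 95.04% for Ldha. Of other pathway and hypoxia genes (22, 13, 14 and 35 tested, by list), 10 were called with weights, against 2462 of all 16684 tested genes. With 1 library left out, 0 to 1 were called. The 1 was Nampt without untreated replicate 3, where 456 of 16433 tested genes passed. Tested were 10 epithelial, 12 proliferation, 7 fibroblast, 2 endothelial, 6 muscle, 3 immune and 1 erythroid genes. Of these marker and proliferation genes, 9 were called with weights, against 2462 of all tested genes. Robust shrinkage gave 1 (against 99), the block 4 (434), GC correction 1 (108) and both 3 (268). With 1 library left out, 0 to 3 were called, the 3 without untreated replicate 3. 16 of the 32 genes changed sign in at least 1 alternative, the largest main value among them being 0.26. By median-of-ratios scaling Hk2 was -0.035, Pkm -0.028 and Car12 -0.015 (log2). By upper-quartile scaling Tpi1 was 0.008, and with library weights Pkm was -0.087. With GC correction, with the replicate block or without, Aldoa was 0.007, Tpi1 0.016 and Car12 -0.020. Without both replicates 1, Slc2a1 was 0.081, Gpi1 0.006, Pfkl 0.001, Pfkm 0.001, Pfkfb3 0.014, Aldoa 0.042, Pgk1 0.044 and Fbln1 -0.15. With 1 library left out at a time, the log2 ranges that crossed 0 were Hk2 -0.089 to 0.13, Pfkm -0.092 to 0.035, Pfkfb3 -0.26 to 0.088, Aldoa -0.18 to 0.014, Aldoc -0.034 to 0.41, Tpi1 -0.091 to 0.083, Gapdh -0.19 to 0.024, Pgk1 -0.12 to 0.038, Pkm -0.098 to 0.12, Vegfa -0.051 to 0.24, Car12 -0.23 to 0.25, Ndrg1 -0.10 to 0.16, Ankrd37 -0.074 to 0.16 and Fbln1 -0.11 to 0.19.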
